A study of Mus musculus with 30 samples.

Results

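The comparison described here is of microglia from EAE-vehicle mice with microglia from naive mice, over the genes that these cells expressed. Experimental autoimmune encephalomyelitis (EAE) is an autoimmune disease of the CNS that is induced by immunization with a myelin peptide. A gene was included when its mean log2 FPKM (a read density that corrects for exon length and library size) over the 4 naive and 6 EAE-vehicle libraries was at least 1, which 10448 of the 30952 genes in the deposited table met, 9696 of them protein-coding. All mice were female C57BL/6 (C57BL/6J in the study's methods for EAE), and the study counts its replicates as mice. The EAE-vehicle mice were immunized with MOG35-55. The study's methods for EAE in this strain also name complete Freund's adjuvant and pertussis toxin. From a clinical score of about 1, these mice received 20% Captisol (a modified cyclodextrin used as a solvent) by oral gavage 2 times a day for 3 days. The labels give no immunization and no gavage for the naive mice. The disease, the immunization with its adjuvant and toxin, and the dosing therefore cannot be told apart. In both groups, microglia were taken from the spinal cord by a sort for CD11b+CD45intCX3CR1+ cells. The 5 microglia libraries of EAE mice given a RIPK1 inhibitor entered the fit for the spread between libraries and were not compared.

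Microglia are the resident macrophages of the CNS. In health they survey the tissue, clear debris and express a set of genes maintained by TGF-β and the CSF1 receptor. In EAE, T cells and blood-borne myeloid cells enter the spinal cord, and interferon-γ and other cytokines reach the microglia. Interferons act in part through IRF factors, which bind interferon response elements in promoters and switch on antiviral genes, guanylate-binding proteins and genes of antigen presentation.

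The values are the log2 FPKM that the authors deposited after quantile normalization, so every library holds the same set of values, from 0 to 15.34, and read depth is unknown. A gene's difference is given as EAE-vehicle minus naive in log2 units ± SE, and a gene was called higher or lower when limma's Benjamini-Hochberg adjusted p over all 28958 genes tested was under 0.05. The number of genes with signal was 8710 to 15639 in the naive libraries and 10729 to 20398 in the EAE-vehicle libraries. It was lowest in naive replicate 4, where genes without signal hold values up to 1.74. Defining microglial genes were high in every library, at a mean of 9.88 to 10.19 over 14 markers in naive and 7.56 to 8.23 in EAE-vehicle libraries, and 10 of the 14 were called lower and 1, Aif1 (IBA1), was called higher at 0.92 ± 0.20. Markers of other cells were also present. The mean of 10 neutrophil markers was 3.21, 4.29, 8.74 and 4.84 in naive replicates 1 to 4 and 7.10, 4.66, 7.81, 2.97, 3.78 and 5.39 in EAE-vehicle replicates 1 to 6. None of these 10 was called. The mean of 10 monocyte markers was 0.54 to 3.04 in naive and 1.92 to 5.00 in EAE-vehicle libraries, and only Fn1 (fibronectin) was called among them, at 5.13 ± 0.40. The mean of 7 border-associated macrophage markers was 0.96 to 1.91 in naive and 1.09 to 1.28 in EAE-vehicle libraries, none was called, Cd163, Lyve1 and Clec10a had no signal in any of the 10 libraries, and Stab1 was 5.35 to 7.60. The mean of 12 T and NK cell markers was 0.39 to 0.87 and none was called. Of 8 astrocyte markers, with means of 0.94 to 1.56 in naive libraries and at most 1.89 in EAE-vehicle libraries, Aldh1l1 was called higher (2.55 ± 0.53, at most 0.72 in naive and 1.55 to 3.93 in EAE-vehicle libraries). Lower calls were made for Ighm among the B cell markers (-1.26 ± 0.21), Fscn1 among the dendritic cell markers (-3.98 ± 0.69) and Pecam1 among the endothelial markers (-2.65 ± 0.49). The mean of 6 erythrocyte markers was 0.14 to 3.85 in naive libraries, highest in replicate 4, and 0.12 to 1.99 in EAE-vehicle libraries, and none was called. In sorted cells of this kind, a smaller share of a cell type and less RNA per cell cannot be told apart, and the part of other cells in the results below was not tested beyond the values given.

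**Figure D1:**
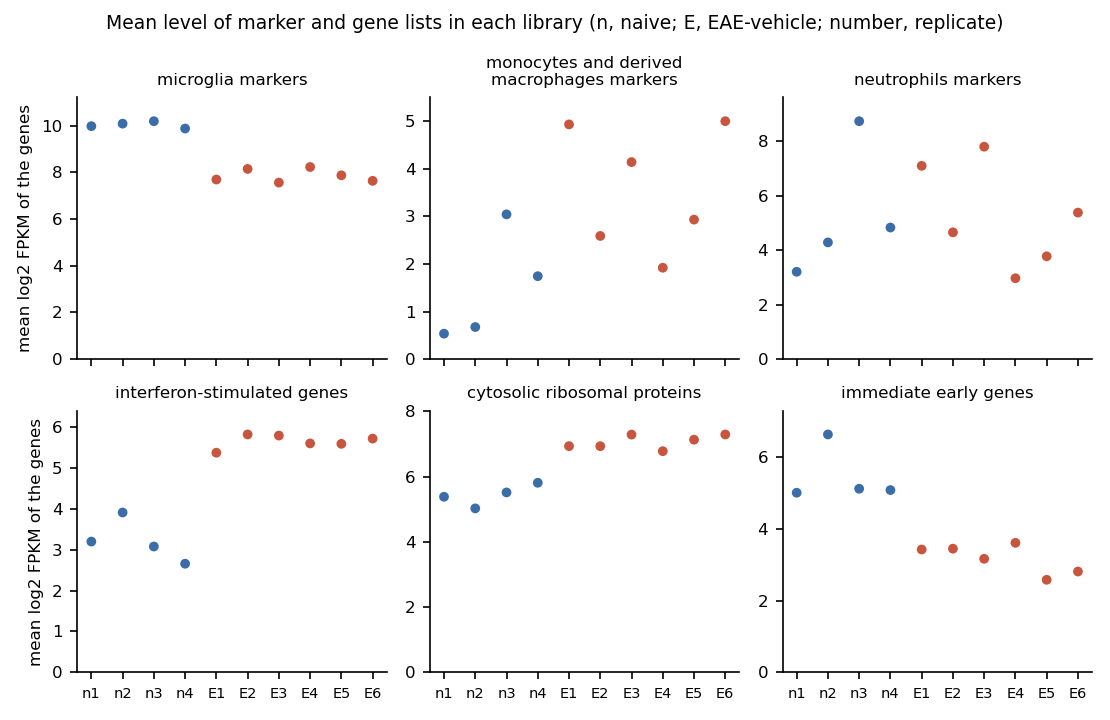
Each point is 1 library, and the y axis is the mean log2 FPKM of the marker or gene list named above the panel (n, naive replicates 1 to 4; E, EAE-vehicle replicates 1 to 6). Microglial markers and immediate early genes sit lower, and interferon-stimulated and cytosolic ribosomal protein genes higher, in all 6 EAE-vehicle libraries, while neutrophil markers run from 3.21 to 8.74 in naive and from 2.97 to 7.81 in EAE-vehicle libraries.

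Over all 28958 genes tested, 685 were called higher (2.37%) and 451 lower (1.56%). Of the 10448 expressed genes, 681 were called higher (6.52%) and 422 lower (4.04%), and 3114 had an unadjusted p under 0.05. Among the called genes, the rises were the larger changes. Among genes called higher, the median difference was 2.15, 385 exceeded 2 log2 units and 92 exceeded 4, whereas among genes called lower the median was -1.86, 190 exceeded 2 log2 units and 11 exceeded 4. The inclusion rule averages over more EAE-vehicle than naive libraries, so genes without signal in naive libraries pass it more easily. Of the expressed genes, 57 had no signal in any naive library, and 21 of these were called higher. Only 1 had none in any EAE-vehicle library, and it was called lower. With signal required in every library, 596 were higher and 583 lower among 6345 genes. The part of the inclusion rule in the larger rises was not tested. The median difference of all expressed genes was 0. Quantile normalization gives every library the same set of values, so a shift shared by all genes could not be seen. Of the naive and EAE-vehicle libraries, naive replicate 3 and EAE-vehicle replicates 1 and 3 had the most neutrophil signal. These 3 are called neutrophil-rich, or the 3 libraries with the most neutrophil signal, below. Leaving them out was an alternative chosen after seeing the data. It gave 372 genes higher and 183 lower, of which 350 and 174 were also called with all libraries. The fit kept RIPK1 inhibitor replicate 3, whose neutrophil marker mean of 8.94 was above those of all 3. With the neutrophil marker level as a covariate, 703 were higher and 453 lower. Leaving out libraries also leaves less power, and for the calls lost below, lost power and neutrophil signal were not told apart. Of the expressed genes, 57.0% are marked in the deposited annotation as confounded with another gene, among them 356 of those called higher and 239 of those called lower, and the members of the H2, Gbp, Serpina3 and other gene families named below may share reads. At the margin of the rule, 302 genes had a mean of 1 to 1.1 and 338 a mean of 0.9 to 1.

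**Figure D2:**
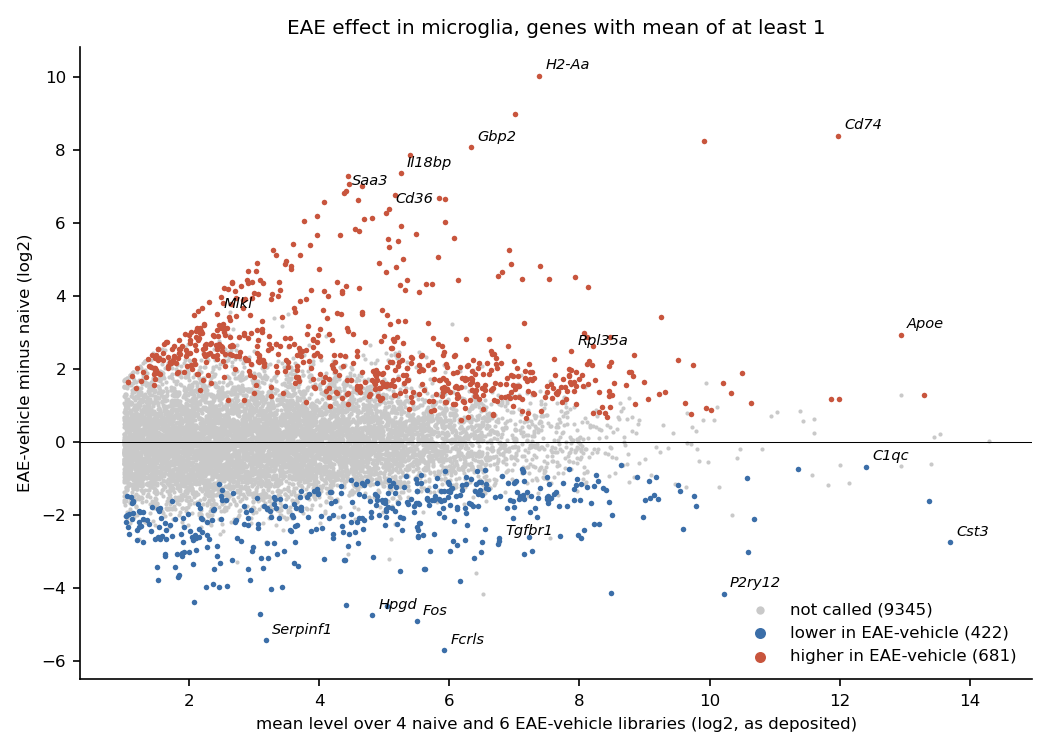
Each point is 1 of the 10448 expressed genes, with its mean log2 FPKM over the 10 libraries on the x axis and EAE-vehicle minus naive (log2) on the y axis. The 681 genes called higher reach 10.03 at H2-Aa, and the 422 called lower reach -5.72 at Fcrls.

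The largest rises were in genes of antigen presentation and in genes that interferon-γ induces. H2-Aa, a chain of MHC class II, was 0.36, 1.80, 0.94 and 2.36 in the naive libraries and 10.85 to 11.93 (median 11.40) in the EAE-vehicle libraries, a rise of 10.03 ± 0.33 (adjusted p = 2.89e-10). Cd74, the invariant chain that escorts class II molecules, was 6.52 to 7.55 in naive and 15.34 in all 6 EAE-vehicle libraries. That is the highest value in the table, which quantile normalization gives to the top gene of every library, so the difference of 8.39 is capped by rank. Gbp2, a guanylate-binding protein that acts against intracellular pathogens, was 2.59, 2.54, 0.71 and 0.12 in naive and 9.26 to 10.06 (median 9.51) in EAE-vehicle libraries, a rise of 8.07 ± 0.44 (adjusted p = 5.7e-08). The 12 largest rises and falls were taken among called genes whose groups do not overlap, so the separation of their groups is set by that choice.

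Secreted regulators and lipid genes stood beside them. Il18bp, which binds and neutralizes IL-18, was 0.25, 1.70, 0.97 and 0.45 in naive and 7.79 to 8.44 (median 8.25) in EAE-vehicle libraries (rise of 7.36 ± 0.26, adjusted p = 4.8e-10). The protease inhibitors Serpina3g and Serpina3f had no signal in 3 of 4 naive libraries, and their EAE-vehicle medians were 7.42 and 7.39. Saa3, an acute phase apolipoprotein, was 0.18 to 0.38 in naive and varied more among the EAE-vehicle libraries, from 5.59 to 8.29 (median 7.14, rise of 6.87 ± 0.58). Apoc2, the apolipoprotein that activates lipoprotein lipase, was at most 0.69 in naive and 6.31 to 7.57 in EAE-vehicle libraries, a rise of 6.80 ± 0.32.

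The largest falls were in cell surface receptors, secreted proteins and transcription factors of the AP-1 and EGR families. Fcrls, an Fc receptor-like scavenger receptor typical of mouse microglia, was 9.08, 9.26, 9.92 and 9.16 in naive and 2.45 to 5.49 (median 3.22) in EAE-vehicle libraries, and it fell by 5.72 ± 0.75 (adjusted p = 0.000372). Serpinf1, which encodes the secreted factor PEDF, was 6.30 to 6.78 in naive and 0 to 1.70 in EAE-vehicle libraries and fell by 5.45 ± 0.54. Hpgd, the dehydrogenase that inactivates prostaglandins, was 7.39 to 7.91 in naive and 0.36 to 4.23 in EAE-vehicle libraries and fell by 4.76 ± 0.61. Falls of 3.98 to 4.72 were found for Upk1b, a tetraspanin, Adamts1, a secreted metalloprotease, P2ry12 and Gpr34, receptors for ADP and lysophosphatidylserine, Slc40a1, the iron exporter ferroportin, and Hnmt, which inactivates histamine. Hnmt and Adamts1 had no signal in 3 of the 6 EAE-vehicle libraries.

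**Figure D3:**
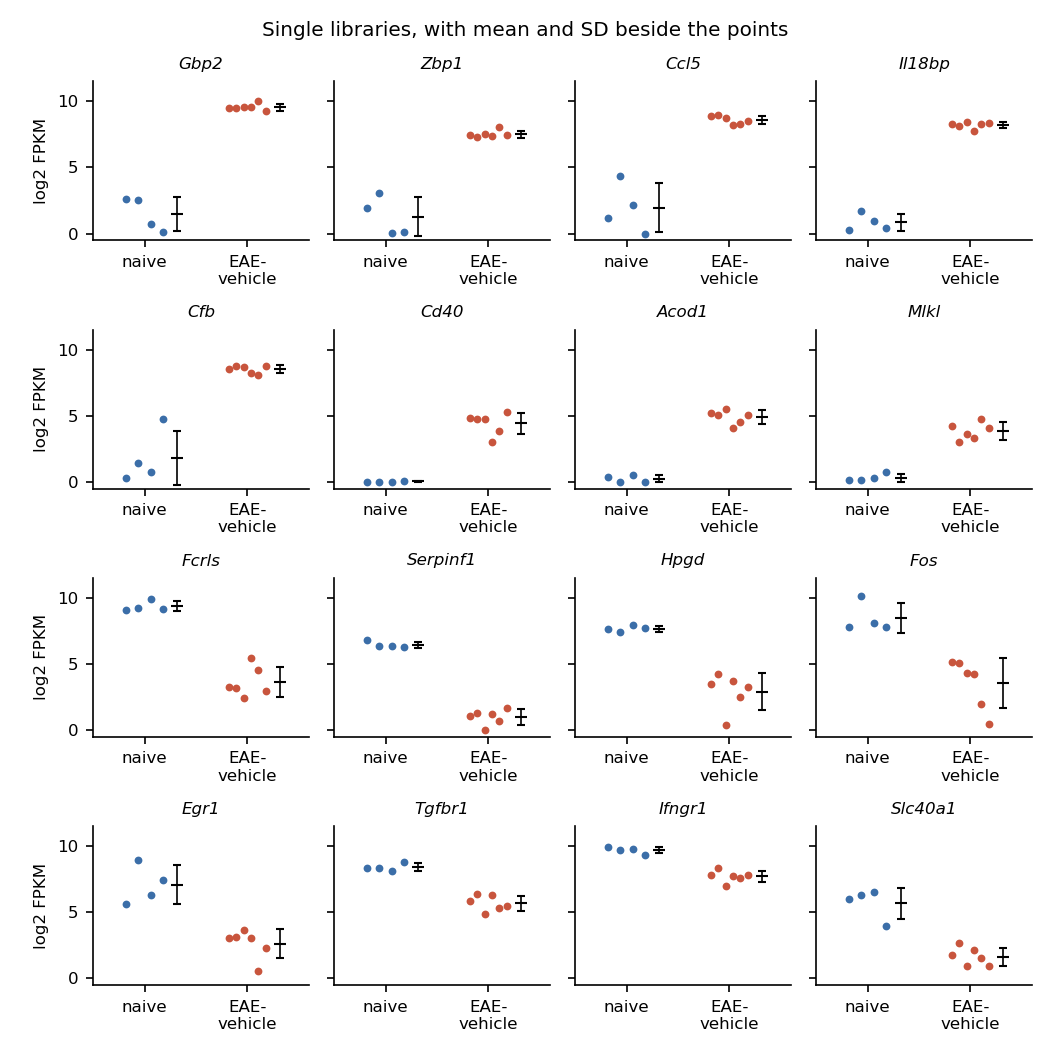
Log2 FPKM of 16 genes, with 1 point per library (blue, 4 naive; red, 6 EAE-vehicle) and the mean with its SD as a black bar beside the points. The naive and EAE-vehicle points do not overlap for any of the 16 genes, and Gbp2 (difference of 8.07) and Fcrls (-5.72) have the largest differences upward and downward among them.

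Interferon-induced genes were among the lists with the largest shares called higher. Among interferon-γ-inducible GTPases and their partners, 18 of the 19 expressed genes were called higher and none lower, with a median of 4.32, beside 6.52% of all expressed genes. Their mean level was 1.72 to 2.65 in naive and 6.45 to 6.91 in EAE-vehicle libraries. Iigp1, an immunity-related GTPase that attacks pathogen vacuoles, was 0.23, 1.78, 0.72 and 0.03 in naive and 8.41 to 8.79 (median 8.50) in EAE-vehicle libraries, a rise of 7.86 ± 0.35 (adjusted p = 5.14e-09), and Gbp6 rose by 7.00 ± 0.31. Of 44 interferon-stimulated genes, 32 were called higher, none was called lower and all 44 differences were above 0, with a median of 2.23. The mean of this list was 2.66 to 3.91 in naive and 5.37 to 5.82 in EAE-vehicle libraries. Zbp1, a sensor of Z-form nucleic acids that can engage RIPK3, was 1.91, 3.06, 0.03 and 0.09 in naive and 7.32 to 8.05 (median 7.45) in EAE-vehicle libraries, a rise of 6.25 ± 0.48. Ifi27l2a, an interferon-induced mitochondrial protein gene, rose by 4.81 ± 0.47 from a naive level of 3.72 to 4.81. Ifitm3, which blocks virus entry, was 4.88, 5.65 and 5.02 in naive replicates 1 to 3 and was without signal in naive replicate 4 (0.55), and it rose by 4.65 ± 0.75 to an EAE-vehicle median of 8.70. Without the 3 libraries with the most neutrophil signal, 14 of the GTPases and 20 of the interferon-stimulated genes were called.

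Promoters of some of these genes are printed below. They are the largest rises among called interferon genes whose promoter held the interferon response motif. The match in each printed promoter was therefore set by that choice. The letters GAAANNGAA, read on both strands, match the core that IRF factors bind and were sought from 250 bases before to 50 bases after each start in the RefSeq promoters of GRCm38.p6, matched by gene symbol. They were present in 19.3% of 617 promoters of genes called higher, in 8.05% of 447 promoters of genes called lower, in 6.76% of 9166 promoters of genes not called and in 8.56% of all 32851 promoters. Of the promoters of the interferon lists, 30 of 55 (54.5%) held a match, and 23 of the 37 called interferon genes with a promoter had at least 1. Some genes with large rises, such as Iigp1, Gbp6 and Zbp1, had no promoter to search. The promoter of Ifi47, which rose by 5.78, held no match. A match in letters is a description and not a bound site. The promoter of Gbp2 (chr3:142620413-142620712, plus strand) is printed 5′ to 3′ with its match in capitals, which begins 58 bases before the start and reads on the opposite strand. Those of Tgtp2 (chr11:49064163-49064462, minus strand) and Tgtp1 (chr11:48992197-48992496, minus strand), near-identical neighbouring GTPase genes chosen after their values were seen, are printed beside it with their matches at 70 and 77 bases before the start.
Gbp2: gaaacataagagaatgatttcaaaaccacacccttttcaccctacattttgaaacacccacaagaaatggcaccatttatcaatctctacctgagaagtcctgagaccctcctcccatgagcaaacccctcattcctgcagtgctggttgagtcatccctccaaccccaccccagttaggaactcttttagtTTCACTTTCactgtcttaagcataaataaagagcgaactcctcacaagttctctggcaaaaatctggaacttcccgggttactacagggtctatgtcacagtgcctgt
Tgtp2: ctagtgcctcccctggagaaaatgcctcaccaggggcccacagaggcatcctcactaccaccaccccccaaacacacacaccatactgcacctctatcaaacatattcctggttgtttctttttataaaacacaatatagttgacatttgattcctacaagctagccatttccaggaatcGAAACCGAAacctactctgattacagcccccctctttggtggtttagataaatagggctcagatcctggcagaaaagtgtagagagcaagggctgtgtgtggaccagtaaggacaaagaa
Tgtp1: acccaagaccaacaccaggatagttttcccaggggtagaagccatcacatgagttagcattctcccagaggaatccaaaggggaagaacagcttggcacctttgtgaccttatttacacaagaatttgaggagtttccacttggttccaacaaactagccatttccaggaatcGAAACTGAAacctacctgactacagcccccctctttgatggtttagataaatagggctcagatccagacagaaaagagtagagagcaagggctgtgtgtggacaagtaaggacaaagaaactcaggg

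Tgtp2 rose by 6.77 ± 0.52 and Tgtp1 by 5.43 ± 0.48, and their shared sequence means that reads of each may be counted for the other. The other motifs sought were GGGANTTTC for NF-κB (1.62% of promoters of genes called higher, 1.12% of those called lower, 0.993% of those not called and 1.11% of all), GAGGAAGT for PU.1 (4.21%, 6.49%, 3.32% and 3.2%), TGANTCA for AP-1 (8.43%, 6.26%, 4.56% and 7.81%) and GTCACGTG for the CLEAR element of lysosomal genes (3.73%, 2.01%, 4.71% and 2.25%). None of these differed between higher and lower genes as widely as the IRF letters, and the differences were not tested. The IRF letters were also in 13 of 70 promoters of cytosolic ribosomal proteins (18.6%), genes that are not known as interferon targets.

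Chemokines were mostly higher. Of the 14 expressed chemokine genes (19 in the table), 9 were called higher (64.3%, beside 6.52% of all expressed genes) and none lower. The median was 3.03, and 2 of the 14 had no signal in any naive library. Across the alternatives, some of which fitted fewer genes, the list median ran from -1.12 to 3.38. The lowest count called higher among them was 3. Ccl5, which attracts T cells and monocytes, was 1.21, 4.38, 2.19 and 0.00 in naive and 8.22 to 8.98 (median 8.63) in EAE-vehicle libraries, a rise of 6.65 ± 0.58 (adjusted p = 8.26e-06). Cxcl10, the interferon-induced ligand of CXCR3, was 0.05, 3.66, 0.70 and 2.48 in naive and 6.79 to 7.72 in EAE-vehicle libraries (rise of 5.55 ± 0.62), and Ccl7, a monocyte attractant, was 1.64, 5.22, 0.00 and 0.00 in naive and 6.85 to 8.50 in EAE-vehicle libraries (rise of 5.90 ± 0.87). Naive replicate 2 was the highest naive library for all 3, and it still lay below every EAE-vehicle library.

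Cytokine genes were called in both directions, 4 of 20 expressed genes higher (20.0%) and 2 lower (10.0%), with a median of 0.33. Besides Il18bp, the rises included Il27, a cytokine that restrains T cell responses (3.32 ± 0.51), and Il1rn, the IL-1 receptor antagonist (3.09 ± 0.59). The falls were of Il16, a chemoattractant of CD4+ cells, from 5.38 to 7.13 in naive to 1.91 to 4.60 in EAE-vehicle libraries (fell by 2.85 ± 0.50), and of Il6, whose groups overlapped at low levels (fell by 1.95 ± 0.42), a call lost without the 3 libraries with the most neutrophil signal (adjusted p = 0.131). Of 40 expressed receptor and signalling genes, 3 were called higher (7.5%, near the 6.52% of all expressed genes) and 6 lower (15.0%, beside 4.04%), with a median of -0.34. Il2rg, the common γ chain of the receptors for IL-2, IL-15 and related cytokines, was 4.97, 5.99, 4.83 and 5.12 in naive and 9.22 to 10.16 (median 9.79) in EAE-vehicle libraries, a rise of 4.52 ± 0.29 (adjusted p = 3.86e-07). Il15ra and Socs1, a feedback inhibitor of JAK-STAT signalling, rose by 2.23 ± 0.32 and 2.98 ± 0.64. Ifngr1, the ligand-binding chain of the interferon-γ receptor, was 9.34 to 9.92 in naive and 6.95 to 8.33 in EAE-vehicle libraries and fell by 2.00 ± 0.32, and Il6st, the shared gp130 chain, fell by 2.36 ± 0.40. Csf1r, on which microglial survival depends, fell by 1.76 ± 0.46, and its call was lost without any of 9 of the 10 single libraries (adjusted p up to 0.14, without naive replicate 3). Socs1 was lost without naive replicate 3 (adjusted p = 0.0508). The 6 receptor genes called lower became 3 without EAE-vehicle replicate 1, 3, 4, 5 or 6 or naive replicate 2 or 4, and also 3 without the 3 neutrophil-rich libraries.

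Genes of disease-associated microglia, a state described in neurodegeneration, were not uniformly higher. Of 32 expressed genes, 11 were called higher (34.4%) and 3 lower (9.38%), beside 6.52% and 4.04% of all expressed genes, with a median of 0.90. Their mean was 6.74 to 6.89 in naive and 7.37 to 7.78 in EAE-vehicle libraries. Cst7, an inhibitor of cathepsins, was 3.98, 3.49, 3.63 and 0.08 in naive and 7.49 to 8.13 (median 7.97) in EAE-vehicle libraries, a rise of 5.06 ± 0.60. Apoe, the main lipid carrier of the CNS, was 10.27, 11.32, 11.48 and 11.64 in naive and 13.32 to 14.48 (median 14.34) in EAE-vehicle libraries (rise of 2.94 ± 0.47, adjusted p = 0.00173). Trem2, the lipid-sensing receptor on which this state depends, was 10.38 to 10.92 in naive and 8.85 to 9.65 in EAE-vehicle libraries and fell by 1.48 ± 0.18 (adjusted p = 0.000183). Serpine2, a secreted protease inhibitor, fell by 2.59 ± 0.35. The tetraspanin Cd9 fell by 1.18 ± 0.28, a call lost without 5 of the 10 single libraries (adjusted p up to 0.0753, without naive replicate 4).

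Of 20 expressed genes of lipid efflux and storage, 4 were called higher (20.0%) and 1 lower (5.0%), with a median of 0.86, and of 19 expressed genes of sterol synthesis none was called in either direction (median -0.00). Ebp and Pmvk, the sterol synthesis genes with the highest levels, differed by 0.08 ± 0.36 and 0.41 ± 0.49. Cd36, a scavenger receptor for oxidized lipids, was 0.04, 1.05, 0.09 and 3.79 in naive and 7.31 to 7.88 (median 7.62) in EAE-vehicle libraries, a rise of 6.38 ± 0.57 (adjusted p = 9.56e-06). Naive replicate 4 was the highest of the naive libraries there. Msr1, another scavenger receptor, rose by 4.16 ± 0.62, and Ch25h, which makes 25-hydroxycholesterol and is induced by interferon, by 3.41 ± 0.62. Mylip, which sends the LDL receptor to degradation, fell by 1.35 ± 0.30, a call lost without naive replicate 1 or 2 (adjusted p up to 0.0636). Of 39 lysosomal and cathepsin genes, 3 were called higher (7.69%) and 2 lower (5.13%), shares near the 6.52% and 4.04% of all expressed genes, with a median of 0.10. Cd63, a tetraspanin of late endosomes, rose by 1.37 ± 0.21, Ctsf and Ctso fell by 1.82 ± 0.26 and 1.40 ± 0.24, and Ctsc (1.34 ± 0.31) and Npc2 (0.81 ± 0.20) were called higher but not without naive replicate 3 or 4 or, for Npc2, any of EAE-vehicle replicates 1 to 4 (adjusted p up to 0.0636 and 0.0803, without naive replicate 4). The count of lysosomal genes called higher was 1 without naive replicate 3 or 4 and 1 without the 3 neutrophil-rich libraries.

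Complement divided by component. Of 17 expressed genes, 6 were called higher (35.3%) and 2 lower (11.8%), beside 6.52% and 4.04% of all expressed genes, with a median of 0.57. Cfb, the protease of the alternative pathway, was 0.29, 1.46, 0.77 and 4.79 in naive and 8.08 to 8.76 (median 8.63) in EAE-vehicle libraries, a rise of 6.68 ± 0.66. C4b, of the classical pathway, rose by 6.63 ± 0.36 and Serping1, the C1 inhibitor, by 6.18 ± 0.46, both from naive levels of at most 1.40. C1qc, a chain of C1q, was 12.70 to 13.01 in naive and 11.93 to 12.32 in EAE-vehicle libraries and fell by 0.68 ± 0.17. The call of C1qc was lost without 9 of the 10 single libraries (adjusted p up to 0.115, without naive replicate 2), and no complement gene was called lower without naive replicate 1 or 2 or EAE-vehicle replicate 5 or 6 or without the 3 neutrophil-rich libraries.

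Among 23 genes of Fc receptors and ITAM signalling, 2 were called higher (8.70%) and 2 lower (8.70%), beside 6.52% and 4.04% of all expressed genes, with a median of -0.14. Fcgr4, an activating IgG receptor, was 3.79, 3.99, 4.27 and 4.04 in naive and 8.43 to 8.79 (median 8.55) in EAE-vehicle libraries, a rise of 4.54 ± 0.18 (adjusted p = 1.24e-09), and Lilrb4a, an inhibitory receptor, rose by 4.86 ± 0.36. Syk, the kinase that couples ITAM receptors to signalling, fell by 2.07 ± 0.42 from 4.37 to 5.83 in naive to 2.52 to 3.43 in EAE-vehicle libraries, a call lost without the 3 libraries with the most neutrophil signal (adjusted p = 0.149). Among 26 genes of pattern recognition and the inflammasome, 1 was called higher (3.85%) and 2 lower (7.69%), with a median of -0.18. Cd14, the LPS co-receptor, was 9.16 to 9.92 in naive and 6.02 to 7.77 in EAE-vehicle libraries and fell by 2.43 ± 0.39. Of 17 NF-κB genes, none was called higher and 1, Rel, lower (median 0.12). The calls of Clec4a3 (fell by 1.74 ± 0.44), Pycard (1.02 ± 0.24), Tmem173, which encodes STING (fell by 0.92 ± 0.23), and Rel (fell by 1.17 ± 0.29) were lost without 5 to 7 of the 10 single libraries, with adjusted p up to 0.112 (without naive replicate 1), 0.079 (without naive replicate 3), 0.0989 (without naive replicate 2) and 0.092 (without naive replicate 2).

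Necroptosis runs from RIPK1 and RIPK3 to MLKL, the protein that opens the plasma membrane. Of 20 expressed genes of RIPK1 signalling and cell death, 2 were called higher and none lower (median 0.08), beside 6.52% and 4.04% of all expressed genes. Mlkl had no signal in any of the 4 naive libraries and was 3.00 to 4.79 (median 3.86) in the EAE-vehicle libraries (adjusted p = 0.000516). It met the inclusion rule only through the EAE-vehicle libraries, so it could enter only as a rise. The mean of Ripk1 was 3.59 in naive and 3.99 in EAE-vehicle libraries (difference of 0.40 ± 0.37, adjusted p = 0.747). Ripk3 was at 1.77 and 3.28 (1.51 ± 0.66, adjusted p = 0.315) and Casp8 at 6.68 and 6.29 (-0.39 ± 0.28, adjusted p = 0.604). These 3 were chosen after their values were seen. Cflar, which encodes the caspase-8 inhibitor c-FLIP, was 5.78 to 5.86 in naive and 6.15 to 6.82 in EAE-vehicle libraries, and its rise of 0.60 ± 0.16 was lost without 9 of the 10 single libraries (adjusted p up to 0.0941, without EAE-vehicle replicate 3).

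Of 20 expressed glycolysis genes, 6 were called higher (30.0%, beside 6.52% of all expressed genes) and none lower, with a median of 0.66, and their mean was 4.55 to 5.24 in naive and 5.38 to 5.78 in EAE-vehicle libraries. Pfkp, a phosphofructokinase, was 0.63, 1.64, 2.38 and 0.00 in naive and 3.35 to 4.88 in EAE-vehicle libraries (rise of 2.99 ± 0.48), Pgk1 rose by 1.88 ± 0.30 and Gpi1 by 1.49 ± 0.34. The call of Gpi1 was lost without 2 of the 10 single libraries (adjusted p up to 0.0636, without naive replicate 2). None of 18 TCA cycle genes was called (median 0.38). Mdh2 and Idh3g, those with the highest levels, differed by 0.46 ± 0.24 and -0.94 ± 0.27. Of 11 expressed genes of arginine, tryptophan and itaconate metabolism, 3 were called higher (27.3%) and none lower (median 0.78). Acod1, which makes itaconate, was at most 0.52 in naive libraries and 4.11 to 5.50 (median 5.06) in EAE-vehicle libraries, a rise of 4.68 ± 0.35 (adjusted p = 1.98e-06). Arg1, arginase 1, rose by 4.42 ± 0.80 with a wide range of 2.35 to 6.69 among EAE-vehicle libraries, and Ass1, which regenerates arginine, rose by 3.11 ± 0.45. Of the 32 expressed genes of iron, metal and redox handling, 12 were called higher (37.5%) and 2 lower (6.25%). These stand beside 6.52% and 4.04% of all expressed genes, and the list median was 0.52. Gpx3, a secreted glutathione peroxidase, was at most 0.28 in naive and 6.28 to 7.51 in EAE-vehicle libraries (rise of 6.57 ± 0.30), Cybb, the catalytic subunit of the phagocyte NADPH oxidase, rose by 4.65 ± 0.34 and Txn1, thioredoxin, by 2.31 ± 0.31. Slc40a1 was 5.97, 6.31, 6.49 and 3.94 in naive and 0.92 to 2.64 in EAE-vehicle libraries. Ncoa4, the receptor for ferritin breakdown, fell by 1.06 ± 0.23, a call lost without naive replicate 3 (adjusted p = 0.0586), which left 1 gene of the list called lower.

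Genes of the cytosolic ribosome rose together. Of the 79 expressed genes (82 in the table), 66 were called higher (83.5%), none lower, and 78 differences were above 0, with a median of 1.69. Their mean level was 5.03 to 5.81 in naive and 6.78 to 7.29 in EAE-vehicle libraries. Rpl35a was 6.34, 5.65, 6.43 and 7.12 in naive and 8.08 to 9.58 (median 8.87) in EAE-vehicle libraries, a rise of 2.49 ± 0.38 (adjusted p = 0.00131), and Rpl36a rose by 2.59 ± 0.32. For Rpl39 (2.75 ± 0.63) the groups overlapped through naive replicate 4, at 5.65, and the call was lost without 5 of the 10 single libraries (adjusted p up to 0.0787, without naive replicate 2). Leaving out each library in turn gave 56 to 70 calls, and leaving out the 3 libraries with the most neutrophil signal gave 50. Ribosomal protein genes are short and have many processed pseudogenes, so their reads may be split. Of 78 mitochondrial ribosomal protein genes, 6 were called higher (7.69%, near the 6.52% of all expressed genes) and none lower (median 0.69), among them Mrpl30 (3.32 ± 0.71, with no signal in naive replicate 4 and adjusted p = 0.0552 without the 3 neutrophil-rich libraries), Mrpl54 (2.19 ± 0.44) and Mrpl57 (2.06 ± 0.33).

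**Figure D4:**
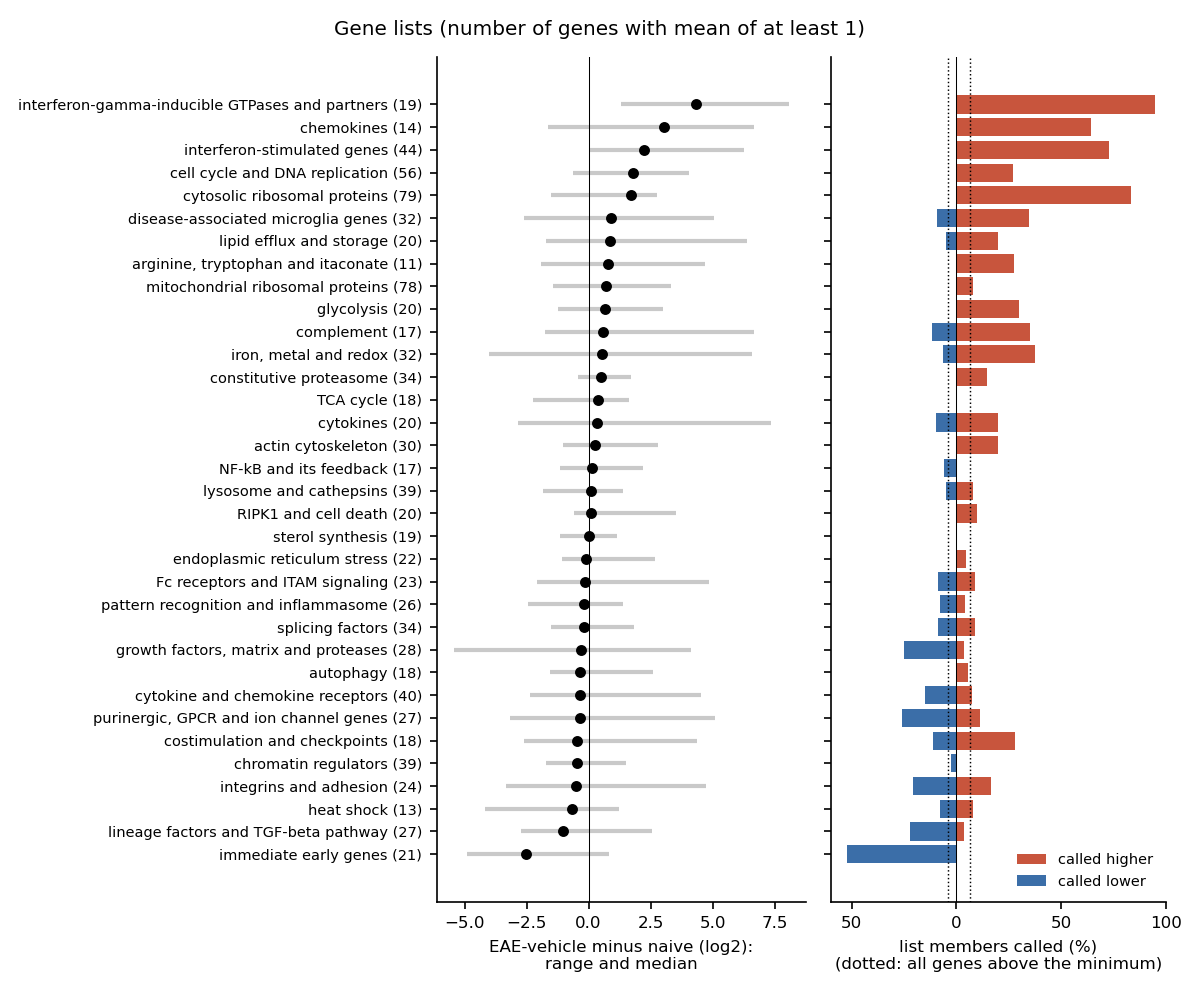
For each of 34 gene lists (number of expressed genes in parentheses), the left panel gives the median (black point) and range (grey bar) of EAE-vehicle minus naive (log2), and the right panel the percent of its genes called higher (red, to the right) and lower (blue, to the left), with dotted lines at 6.52% and 4.04%, the percents over all expressed genes. Interferon-γ-inducible GTPases have the highest median (4.32) and immediate early genes the lowest (-2.52).

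The size of the difference also varied with exon length. Over the 10448 genes, Spearman's rho between exon length and the difference was -0.19, given as a description across genes, which are not independent replicates. The shortest quintile of genes (2090 genes) had a median difference of 0.33 and 12.4% called higher, whereas the longest quintile had a median of -0.24 and 2.92% called higher. For calls lower, these percents were 3.45% and 4.88%. Genes called higher had a median exon length of 2844 bases and those called lower of 4485 bases, beside 4273 bases for all expressed genes. Within single libraries, the mean level of the shortest quintile exceeded that of the longest quintile by 0.45, 0.44, 0.16 and 0.16 in naive replicates 1 to 4 and by 0.67 to 1.13 in the EAE-vehicle libraries, and the groups did not overlap. Without ribosomal protein genes, the shortest quintile still had a median of 0.29 and 10.6% called higher. The part of exon length in the rise of short genes such as those of ribosomes was not tested.

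**Figure D5:**
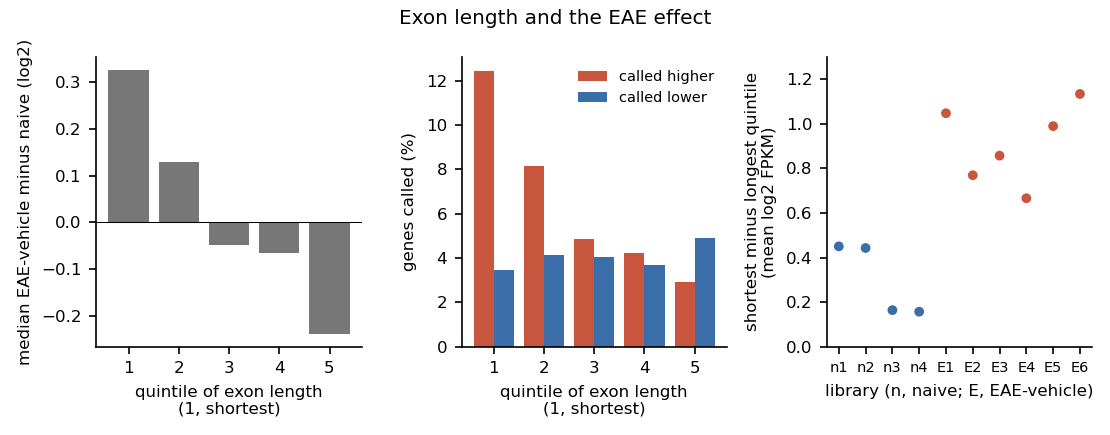
Left, the median EAE-vehicle minus naive (log2) in quintiles of exon length, from 0.33 in the shortest to -0.24 in the longest. Middle, the percent of genes called higher (red) and lower (blue) in each quintile. Right, 1 point per library (n, naive; E, EAE-vehicle), the mean log2 FPKM of the shortest minus that of the longest quintile, which lies between 0.16 and 0.45 in naive and between 0.67 and 1.13 in EAE-vehicle libraries.

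Cell cycle and DNA replication genes were higher as a list, at levels that were low. Of the 56 expressed genes, 15 were called higher (26.8%, beside 6.52% of all expressed genes) and none lower. The median was 1.80, and 52 differences were above 0. Their mean was 1.73, 1.98, 2.12 and 1.86 in naive and 2.92 to 4.25 in EAE-vehicle libraries. Cdk1, the kinase that drives entry into mitosis, was 2.72, 2.51, 1.76 and 0.00 in naive and 5.04 to 6.56 (median 5.67) in EAE-vehicle libraries, a rise of 3.98 ± 0.53 (adjusted p = 0.000418), and Ccnb2, a B-type cyclin, rose by 3.60 ± 0.63. Ube2c, a ubiquitin-conjugating enzyme of mitotic exit, rose by 4.04 ± 0.93, a call lost without 5 of the 10 single libraries (adjusted p up to 0.0656, without naive replicate 1). The count of 15 fell to 7 without EAE-vehicle replicate 1 or 5, to 8 without EAE-vehicle replicate 6 and to 9 without EAE-vehicle replicate 4 or naive replicate 2. It was 6 without the 3 libraries with the most neutrophil signal. Of 34 constitutive proteasome genes, 5 were called higher (14.7%, beside 6.52% of all expressed genes, median 0.50), among them Psma5 (1.48 ± 0.22) and Psmb7 (1.44 ± 0.30). That count was 2 without EAE-vehicle replicate 1, 4, 5 or 6, 3 without EAE-vehicle replicate 2 or 3 or naive replicate 3, and 2 without the 3 neutrophil-rich libraries, where Psmb7 was lost (adjusted p = 0.152). Psmd13 (1.56 ± 0.40) was lost without 8 of the 10 single libraries (adjusted p up to 0.0933, without naive replicate 3).

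Immediate early genes, which cells transcribe within minutes of a stimulus, were lower in EAE-vehicle libraries. Of the 21 expressed genes, none was called higher and 11 were called lower, beside 4.04% of all expressed genes, and the median was -2.52. Their mean was 5.00, 6.62, 5.11 and 5.07 in naive and 2.58 to 3.61 in EAE-vehicle libraries, so that naive replicate 2 stood above the other naive libraries. Jun was 6.83, 9.25, 8.22 and 6.66 in naive and 2.01 to 4.69 (median 3.15) in EAE-vehicle libraries and fell by 4.50 ± 0.62 (adjusted p = 0.000547). Egr1 was 5.66, 8.97, 6.32 and 7.42 in naive and 0.57 to 3.62 in EAE-vehicle libraries and fell by 4.47 ± 0.77. Fos, the partner of Jun in AP-1, was 7.81, 10.13, 8.08 and 7.77 in naive and 0.46 to 5.14 (median 4.25) in EAE-vehicle libraries. It fell by 4.91 ± 1.20, a call lost without 5 of the 10 single libraries (naive replicates 1, 2 and 3 and EAE-vehicle replicates 5 and 6, adjusted p up to 0.105). The count of 11 was 6 without naive replicate 2 and 7 without naive replicate 3 or EAE-vehicle replicate 5 or 6, and 6 without the 3 libraries with the most neutrophil signal. None of the 22 promoters of these genes held the AP-1 letters, beside 4.87% of the promoters of all expressed genes. With so few promoters, this is a description and was not tested. Of 13 heat shock genes, 1 was called in each direction (7.69% each, beside 6.52% and 4.04% of all expressed genes, median -0.67). Hspb1, a small heat shock protein, was 3.75, 6.64, 2.82 and 3.04 in naive and 0.04 to 0.71 in EAE-vehicle libraries and fell by 3.71 ± 0.74, and Hspe1 rose by 1.25 ± 0.31, a call lost without 8 of the 10 single libraries (adjusted p up to 0.0914, without naive replicate 1). Of 22 genes of endoplasmic reticulum stress, only Asns, asparagine synthetase, was called (2.67 ± 0.53, list median -0.11). The calls of Hspb1 and Asns were lost without the 3 neutrophil-rich libraries (adjusted p = 0.0522 and 0.112), which left no heat shock or endoplasmic reticulum stress gene called.

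Of 27 expressed genes of lineage factors and the TGF-β pathway, 1 was called higher and 6 lower (22.2%, beside 4.04% of all expressed genes), the other 20 were not called, and the median was -1.02. The mean of the list was 4.83 to 5.11 in naive and 3.86 to 4.35 in EAE-vehicle libraries. Tgfbr1, a TGF-β receptor kinase, was 8.33, 8.37, 8.11 and 8.80 in naive and 4.85 to 6.35 (median 5.64) in EAE-vehicle libraries and fell by 2.72 ± 0.33 (adjusted p = 0.000163). The transcription factors Ets1 and Maf fell by 2.63 ± 0.44 and 2.39 ± 0.37. Bhlhe40, a transcriptional repressor, rose by 2.55 ± 0.53, with naive replicate 2, at 2.77, within the EAE-vehicle range, and this call was lost without the 3 neutrophil-rich libraries (adjusted p = 0.0669).

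Of 27 expressed purinergic, GPCR and ion channel genes, 3 were called higher (11.1%) and 7 lower (25.9%). These stand beside 6.52% and 4.04% of all expressed genes, and the list median was -0.37. P2ry14, the UDP-glucose receptor, was 0.32, 1.69, 0.47 and 0.10 in naive and 4.59 to 6.33 (median 5.83) in EAE-vehicle libraries, a rise of 5.11 ± 0.45, and Adora1, an adenosine receptor, rose by 4.12 ± 0.42. Gpr183, the oxysterol receptor, was 6.21 to 7.00 in naive and 2.39 to 4.69 in EAE-vehicle libraries and fell by 3.15 ± 0.38, S1pr1, a sphingosine-1-phosphate receptor, fell by 3.01 ± 0.61 and Gpr155 by 2.74 ± 0.39. Ptger4, a prostaglandin E2 receptor, rose by 2.00 ± 0.51, a call lost without 8 of the 10 single libraries (adjusted p up to 0.105, without naive replicate 4). Of 24 integrin and adhesion genes, 4 were called higher (16.7%) and 5 lower (20.8%), beside the same 6.52% and 4.04%, with a median of -0.50. Itgal, the α chain of LFA-1, was 0.13, 0.12, 0.49 and 2.21 in naive and 4.69 to 6.28 in EAE-vehicle libraries (rise of 4.72 ± 0.50), and Vcam1 rose by 4.17 ± 0.58. Selplg, the ligand of P-selectin, was 12.23 to 12.55 in naive and 8.91 to 9.77 in EAE-vehicle libraries and fell by 3.02 ± 0.23 (adjusted p = 2.16e-06), and the junction genes Jam2 and Pecam1 fell by 3.33 ± 0.62 and 2.65 ± 0.49. Itgb7 (2.80 ± 0.67) was lost without 8 of the 10 single libraries (adjusted p up to 0.0742, without naive replicate 1). Without the 3 libraries with the most neutrophil signal, 3 genes of each list were called lower, and S1pr1 and Pecam1 were lost (adjusted p = 0.0994 and 0.0874).

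Of 18 expressed genes of costimulation and checkpoints, 5 were called higher (27.8%) and 2 lower (11.1%). These stand beside 6.52% and 4.04% of all expressed genes, and the list median was -0.47. Cd40, the receptor through which T cells activate antigen-presenting cells, had no signal in any naive library and was 3.04 to 5.26 (median 4.75) in EAE-vehicle libraries (adjusted p = 3.66e-06). Cd40 met the inclusion rule only through the EAE-vehicle libraries, so it could enter only as a rise. Cd274, which encodes PD-L1, was 3.20, 2.12, 0.62 and 2.96 in naive and 5.54 to 6.06 in EAE-vehicle libraries and rose by 3.51 ± 0.42, and Slamf7 rose by 4.34 ± 0.32. The inhibitory checkpoint Vsir (VISTA) was 8.07 to 9.52 in naive and 5.80 to 6.83 in EAE-vehicle libraries and fell by 2.62 ± 0.34, and Cd276 (B7-H3) fell by 2.31 ± 0.37 to a level without signal in 5 of 6 EAE-vehicle libraries.

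Of 28 genes of growth factors, matrix and proteases, 1 was called higher (3.57%) and 7 lower (25.0%). These stand beside 6.52% and 4.04% of all expressed genes, and the list median was -0.31. Lgals1, galectin-1, rose by 4.14 ± 0.59. Cst3, the secreted cathepsin inhibitor cystatin C, was the top gene of every naive library (15.34) and was 12.43 to 12.87 in EAE-vehicle libraries, so its fall of 2.75 ± 0.20 is also capped by rank. Of 30 actin cytoskeleton genes, 6 were called higher (20.0%, beside 6.52% of all expressed genes) and none lower (median 0.27). Tmsb10, a thymosin that binds actin monomers, rose by 2.10 ± 0.23. Vim (2.80 ± 0.69) and Iqgap1 (2.24 ± 0.54) were also called, with overlapping groups, and were lost without 8 and 6 of the 10 single libraries (adjusted p up to 0.0981, without naive replicate 1, and 0.0739, without naive replicate 2). The count of 6 was 3 without EAE-vehicle replicate 1, 5 or 6 and 2 without naive replicate 2, and 3 without the 3 neutrophil-rich libraries.

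Of 39 chromatin regulators, none was called higher and 1, the remodeller Chd2, was called lower (fell by 1.72 ± 0.40, list median -0.48), and that call was lost without 5 of the 10 single libraries (adjusted p up to 0.0767, without naive replicate 2). Of 34 splicing factors, 3 were called in each direction (8.82% each, beside 6.52% and 4.04% of all expressed genes), with a median of -0.19. The Sm proteins Snrpf and Snrpd2 rose by 1.84 ± 0.41 and 1.83 ± 0.38 and Hnrnpa1 by 1.74 ± 0.42, whereas Rbm5, Srsf11 and Srsf5 fell by 1.52 ± 0.29, 1.27 ± 0.19 and 1.16 ± 0.19. Hnrnpa1 was lost without 7 of the 10 single libraries (adjusted p up to 0.0972, without naive replicate 3) and Snrpf without 2 (up to 0.0667, without naive replicate 2), and without naive replicate 2 only 1 of the 3 rises was called. Without the 3 neutrophil-rich libraries, none of these 3 rises was called (adjusted p of 0.0562, 0.121 and 0.239 for Snrpf, Snrpd2 and Hnrnpa1). Of 18 autophagy genes, only Atg7, an enzyme of autophagosome formation, was called (2.61 ± 0.53, list median -0.33), and not without these 3 libraries (adjusted p = 0.0576).

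In the order of the expressed genes along the chromosomes (GRCm38), 16 runs of at least 3 consecutive genes were called higher, holding 64 genes, and 4 runs were called lower, holding 12. These runs were chosen after their values were seen, and the number to be had by chance was not computed. The guanylate-binding protein genes formed a run of 5 (Gbp5, Gbp7, Gbp3, Gbp2b and Gbp2, chr3:142493978-142638008, differences of 2.36 to 8.07) and a run of 6 (Gbp8, Gbp9, Gbp4, Gbp10, Gbp6 and Gbp11, chr5:105014150-105346472, 2.02 to 7.00). Antiviral genes formed runs on chromosome 1 (Ifi209, Ifi207, Ifi204, Mndal and Ifi211, chr1:173630917-173942491, 2.51 to 6.06) and chromosome 19 (Ifit2, Ifit3, Ifit3b and Ifit1, chr19:34550694-34650009, 2.48 to 4.15). The C1 inhibitor Serping1 stood next to Ube2l6, Timm10 and Slc43a3 (chr2:84765387-84958509, 2.47 to 6.18), which belong to no shared family. Among the runs called lower were Siglech, Tubgcp5 and Cyfip1 (chr7:55768178-55932602, -2.63 to -1.02). Members of a family that lie side by side are similar in sequence and may share reads.

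To see where the EAE effect in microglia differed from that in another glial cell, it was compared with the effect in astrocytes, sorted as GLAST+CD11b-CD45-CD140a- cells from 4 naive and 6 EAE-vehicle samples, by an interaction term. Of the 10448 genes, the effect was above that in astrocytes for 128 (1.23%) and below it for 105 (1.0%). The largest interaction above was at Pla2g7, which degrades platelet-activating factor, at 8.23 (adjusted p = 1.81e-07). Pla2g7 rose by 5.68 ± 0.62 in microglia and had a difference of -2.55 in astrocytes. Cd36, Serpina3f and Serpina3g rose in microglia and differed by 0.06, 0.70 and 1.23 in astrocytes, with interactions of 6.32, 6.37 and 6.07. Apoe, which rose in microglia by 2.94, differed by -2.30 in astrocytes (interaction of 5.24, adjusted p = 2.37e-05). On the other side, Gimap6 fell by 3.47 ± 0.66 in microglia and differed by 4.55 in astrocytes (interaction of -8.03), and Egr1, Selplg, Hspb1 and Fos had interactions of -7.81, -7.71, -7.61 and -7.61. Receptor genes such as P2ry12 (-5.23) and Gpr34 (-5.62) were also below, and 7 of the 21 immediate early genes were. Markers of other cells were not examined in the astrocyte libraries, and the part of other cells in these interactions was not tested. Of the 19 interferon-γ-inducible GTPases and partners, 2 were above and 2 below. Those with the largest rises, Gbp2, Iigp1 and Gbp6, rose by 8.07, 7.86 and 7.00 in microglia and differed by 7.91, 7.85 and 7.86 in astrocytes, with interactions of 0.16 ± 0.61, 0.01 ± 0.56 and -0.87 ± 0.50 that did not pass the threshold. Centring each library on its median left 81 genes above and 116 below, so the excess of genes above depends on the scaling.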

How the data were processed

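RNA of sorted spinal cord microglia and astrocytes was sequenced from 4 naive, 6 EAE-vehicle and 5 RIPK1 inhibitor-treated EAE samples per cell type (30 libraries, grouped by their deposited titles). The authors aligned and quantified the reads as FPKM in OmicSoft Array Studio and deposited log2 values, quantile-normalized over all libraries. The offset before the logarithm and the annotation release are not given in the sources used here, and low values depend on the offset. Genes without signal were recognised as the stretch of lowest values that rise with a gene's place in the table. Depth cannot be had from such values.

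The comparison was fitted with limma 3.58.1 in R 4.3.3 (lmFit and eBayes with a trend) over the 15 microglia libraries in 3 groups, with the contrast EAE-vehicle minus naive and Benjamini-Hochberg adjustment over 28958 genes, after removal of genes with identical values in all libraries. The 30 libraries in 6 groups gave the interaction. The study's methods name a paired test, and the fits here are unpaired because no label ties mice of different groups to each other. The study counts its replicates as mice, and the libraries were treated as separate mice. In simulated data for this comparison (28958 genes), 58 of 200 genes shifted by 2 log2 units were called in the right direction, 181 had an unadjusted p under 0.05, and 3 unshifted genes were called.

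Protein-coding genes were named by a rule: the 12 largest rises and falls among called genes whose groups do not overlap, up to 3 called rises and falls per gene list (where none was called, the 2 with the highest level), and the 5 largest interactions in each direction. Members and the 34 gene lists were chosen with earlier results of these data known. Some genes that the rule covers are not reported here, and counts include them. Python 3.11.15 was used for tables and promoters. Alternatives covered the genes tested, scaling, variance model, replicate block, single libraries and neutrophil signal.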

Additional observations from a re-analysis of the deposited data

Results flagged for a closer look

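In 362 groups of values tested for a library that stands apart (named genes and list or marker means, in 4 naive or 6 EAE-vehicle libraries), 23 passed Dixon's criterion, and chance passes about 1 in 20. Among the naive libraries, the high values were those of Serpina3g (0.27), Serpina3f (0.90), Serpinf1 (6.78), Fos (10.13), Il6st (6.13), Cd63 (8.97), Ass1 (0.99), Ube2c (2.17), Bhlhe40 (2.77) and Slamf7 (1.21) and of the mean of the immediate early genes (6.62). The low naive values were those of Hnmt (4.60), Ifi27l2a (3.72), Ifitm3 (0.55) and Cst7 (0.084). Fos, Bhlhe40, Ube2c and Slamf7 were high in 1 naive library each, and the immediate early mean was high in naive replicate 2. Among the EAE-vehicle libraries, Zbp1 (8.05) and the means of the costimulation genes (5.83), the oligodendrocyte precursor cell markers (0.54) and the neuron markers (0.21) were high in 1 library, and Il6st (1.77), Itgb7 (0.00), Ncoa4 (3.29) and the mean of the iron, metal and redox genes (5.76) were low in 1.

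The EAE effect differed between microglia and astrocytes by the interaction term for 128 genes above and 105 below, and for 39 of the named genes. Above the astrocyte effect were Pla2g7 (8.23), Vcam1 (7.92), Serpina3f (6.37), Cd36 (6.32), Serpina3g (6.07), Adora1 (5.76), Apoe (5.24), P2ry14 (5.23), H2-Aa (4.93), Apoc2 (4.84), Acod1 (4.72), Cd40 (3.97), Il18bp (3.70), Pfkp (3.69), Fcgr4 (3.62), Il27 (3.26), Gpx3 (3.21), Cybb (2.97), Cd63 (2.43) and Pgk1 (2.09). Below it were Gimap6 (-8.03), Egr1 (-7.81), Selplg (-7.71), Hspb1 (-7.61), Fos (-7.61), Hpgd (-6.98), Fcrls (-6.38), Il16 (-6.03), Gpr34 (-5.62), Jun (-5.50), Serpinf1 (-5.41), Upk1b (-5.25), P2ry12 (-5.23), C1qc (-4.75), Cd14 (-4.35), Vsir (-2.91), Cd276 (-2.25), Il6 (-1.97) and Cst3 (-1.25). The value of Cst3 is capped by rank in the naive microglia.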

How the results depend on the processing

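The samples share replicate numbers. In their deviations from the group means, samples with the same number correlated at 0.113, 0.039, 0.097 and 0.046. Samples with different numbers were not compared, so these values cannot decide whether mice were paired. With the replicate block, 379 genes were called higher and 203 lower, and the interaction was called for 65 above and 48 below. Among the list counts it moved by over 1.5 times, it took glycolysis to 2 of 6 rises, cell cycle to 3 of 15, constitutive proteasome to 1 of 5, actin to 1 of 6, lysosome to 1 of 3, splicing factors to 0 of 3, cytokine receptors to 3 of 6 falls, purinergic and GPCR genes to 4 of 7 and immediate early genes to 4 of 11. With only the expressed genes in the fit, so that fewer genes were adjusted for, 1049 were higher and 709 lower (interaction 205 and 178). At the study's cutoff (fold over 1.5 and unadjusted p under 0.05), 1664 were higher and 1386 lower. Leaving out the 3 libraries with the most neutrophil signal gave 372 and 183. Centring gave 81 interactions above, and quality weights gave 187 below (138 above). With genes that have signal in all 10 libraries only, 596 were higher and 583 lower among 6345 genes, which leaves out genes without signal in naive libraries. Leaving out single libraries gave 534 to 682 higher, 307 to 425 lower, 87 to 112 interactions above and 77 to 99 below. In the other alternatives, counts stayed within 1.5 times those reported. Of 130 named genes called, 84 were called in every alternative, and none turned direction. Calls were lost for 27 without at least 1 single library and for 38 with the replicate block. They were lost for 34 without the 3 neutrophil-rich libraries and for 1 with the neutrophil marker level as a covariate. The causes were not tested. Because depth is unknown, no counting error can be given, and values near those without signal (up to 1.74 in naive replicate 4) cannot be told from no signal. The alternatives on neutrophil signal and on values without signal were chosen after seeing the data.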
